A study of Mus musculus with 12 samples.

Results

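Expression of 45 genes of DNA replication and nucleotide synthesis was followed in cultured mouse macrophages that were treated with an osteoclast-forming cytokine, with or without an inhibitor of lipid handling. The genes were taken by symbol from a list of replication genes that was drawn up with earlier results of these data known, and they make up 45 of the 16570 genes in the table. All 45 had enough counts to be tested. They fall into origin licensing (11 genes), helicase activation (6), polymerases and primase (6), the sliding clamp and its loader (6), single-strand binding and lagging-strand joining (5), synthesis of deoxynucleotides (5), copying of chromatin (3) and regulators of S-phase entry (3).

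Bone marrow cells came from C57BL/6J mice 6 to 8 weeks old, and all of them were first grown for 2 days with the macrophage growth factor M-CSF at 50 ng/mL. For the next 2 days, by the series design and the treatment notes, they received M-CSF at 50 ng/mL with RANKL at 100 ng/mL and 1 µM RHC80267, M-CSF and RANKL with 1 µM BMS309403, M-CSF and RANKL, or M-CSF alone, with 3 libraries in each of the 4 groups. The growth notes give 4 days with RANKL instead, so the time at which the cells were taken is not certain. RANKL is the cytokine that turns macrophages into osteoclasts, RHC80267 is known to block diacylglycerol lipase, and BMS309403 to block FABP4, a carrier of fatty acids. No strain differed between groups, no vehicle is named for the groups without inhibitor, and the labels do not say whether the 3 libraries of a group are separate cultures or animals. P-values therefore measure only the spread between these libraries, which may be technical.

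Chromosomes are copied in S phase. Before it, the origin recognition complex, Cdc6 and Cdt1 load rings of Mcm2 to Mcm7 onto DNA, which is called licensing, and geminin (Gmnn) holds Cdt1 in check so that no origin fires again. Cyclin E and its kinase then bring Cdc45 and the GINS complex to the ring to make the active helicase, and the polymerases follow on the PCNA clamp, fed by ribonucleotide reductase, thymidylate synthase and thymidine kinase. Most of these genes are known targets of E2F factors, which are released from the RB protein at the G1/S boundary. Macrophage precursors divide in M-CSF and leave the cell cycle as they become osteoclasts.

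Because E2F control is the feature that these genes are known to share, their promoters were searched for E2F words. RefSeq promoters on GRCm38.p6, running from 250 bases before to 50 bases after a start, were found for 36 of the 45 genes, and those of Mcm4, Gins1, Gins2, Gins4, Rfc2, Pole, Prim2, Ccne2 and Gmnn were not matched. The letters TTTGGCGC, TTTCGCGC, TTTGCCGC and TTTCCCGC were searched on both strands, where matches can overlap each other. At least 1 of them was found in 13 of the 36 genes (36.1%), against 4.7% of the 9825 tested genes with a promoter and 2.26% of all 32851 promoters. The windows below are those of 5 genes that rose with RHC80267 and of Cdt1, which fell, with the words in capitals and the strand in brackets.
Mcm5, chr8:75109345-75109374 (+): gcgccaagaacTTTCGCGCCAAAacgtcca
Mcm7, chr5:138172030-138172059 (-): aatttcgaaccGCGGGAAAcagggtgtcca
Lig1, chr7:13278841-13278870 (+): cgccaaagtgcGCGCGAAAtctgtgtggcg
Pold1, chr7:44548766-44548795 (-): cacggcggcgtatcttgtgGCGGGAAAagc
Uhrf1, chr17:56304117-56304146 (+): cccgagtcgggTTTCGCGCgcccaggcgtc
Cdt1, chr8:122568035-122568064 (+): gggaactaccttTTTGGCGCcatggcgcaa
The Mcm5 window lies upstream of the start and holds a pair of words on opposite strands that overlap. The windows of Mcm7 and Uhrf1 also lie upstream, and those of Lig1, Pold1 and Cdt1 lie just after the start. The same promoter of Mcm7 also holds a word just after the start, which is not shown. Mcm7, Lig1 and Uhrf1 also have other starts, whose promoters held none of the words. A gene was counted as a match if any of its promoters held a word.

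A longer stretch, the 250 bases before the start, shows the difference between a promoter with several words and one with none. Mcm6, the most abundant of the ring genes per length, has 3 matches in it, 2 of which overlap. Pcna, the clamp gene, has none of the words searched.
Mcm6, chr1:128359706-128359955 (-): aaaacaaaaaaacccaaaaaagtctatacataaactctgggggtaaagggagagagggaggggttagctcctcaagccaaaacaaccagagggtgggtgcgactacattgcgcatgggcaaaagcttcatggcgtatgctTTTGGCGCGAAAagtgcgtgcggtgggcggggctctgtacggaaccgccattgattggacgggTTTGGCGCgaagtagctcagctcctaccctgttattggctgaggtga
Pcna, chr2:132253181-132253430 (-): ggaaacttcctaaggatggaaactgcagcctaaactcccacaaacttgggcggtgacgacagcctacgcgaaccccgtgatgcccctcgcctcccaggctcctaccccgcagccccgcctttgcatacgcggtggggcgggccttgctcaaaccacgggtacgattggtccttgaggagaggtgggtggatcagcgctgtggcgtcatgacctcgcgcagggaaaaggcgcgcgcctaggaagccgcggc
The absence of these letters says nothing about binding of E2F there. CCAAT, the letters of another promoter element, was in 22 of the 36 genes (61.1%), against 43.4% of the tested genes, and TTTGAA, the letters of an element of later cell-cycle genes, was in 4 (11.1%), against 14.7%.

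The libraries held between 17760844 and 18344989 expected counts each. The macrophage markers Csf1r, Adgre1, Cd68 and Itgam had counts in every library. All 7 osteoclast markers had counts in every library with RANKL, while with M-CSF alone Calcr was at 0 in replicates 1 and 2 and Oscar in replicate 2. Summed over 7 genes, osteoclast markers stood at 14942 to 16909 CPM with RHC80267, 6081 to 6893 CPM with BMS309403, 7498 to 9322 CPM with RANKL alone and 48.8 to 68.2 CPM with M-CSF alone, where CPM stands for counts relative to the TMM-scaled size of the library. In the libraries with RHC80267, the summed macrophage markers were lower than with RANKL (19769 to 20816 against 24571 to 26227 CPM), as were those of 6 neutrophil-lineage genes (338 to 494 against 730 to 836 CPM), 5 progenitor genes (18.8 to 23.5 against 30.5 to 32.0 CPM), 5 dendritic cell genes (18.4 to 22.9 against 31.7 to 34.0 CPM) and 6 lymphoid genes (1.03 to 1.53 against 3.39 to 4.86 CPM). Lyz2 made up most of each macrophage sum (13743 to 14759 CPM with RHC80267, 18189 to 19804 CPM with RANKL). Csf1r, Adgre1 and Itgam were also lower, Cd68 overlapped, and Mertk was higher (169 to 185 against 103 to 125 CPM). Flt3 is in both the progenitor and the dendritic sum. Cd34 and Gata2 of the progenitor genes and Zbtb46 of the dendritic genes overlapped, while Siglech was lower (5.07 to 5.76 against 12.2 to 14.5 CPM). The 5 stromal markers in the table summed to 13.0 to 53.7 CPM with RHC80267, against 3.92 to 11.6 CPM with RANKL. The upper end is RHC80267 replicate 1, with Col1a1 at 21.1 and Col1a2 at 24.6 CPM. In replicates 2 and 3 they were at 6.10 and 4.72 CPM and at 5.34 and 5.21 CPM. With BMS309403, the macrophage markers summed to 27192 to 28764 CPM, above those with RANKL, and the progenitor and dendritic sums, at 26.9 to 28.0 and 27.9 to 30.4 CPM, lay below them. Of the lymphoid markers, Ncr1 was at 0 in every library with RHC80267, with RANKL alone and with M-CSF alone, and Cd3e in every library with BMS309403. The part of these shifts in the results that follow was not tested.

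Per length, the members spanned a wide range of levels. In RANKL libraries Pcna stood at 153 ± 9.89 FPKM (mean ± SD, n = 3), far above the next, the loader gene Rfc2 at 41.0 ± 1.99 FPKM and the licensing inhibitor Gmnn at 37.4 ± 1.53 FPKM. The 6 ring genes were not level with each other: Mcm6 had 26.4 ± 1.32 FPKM, Mcm3 14.6 ± 0.697, Mcm7 13.1 ± 0.164, Mcm4 9.96 ± 0.376, Mcm5 8.15 ± 1.12 and Mcm2 6.70 ± 0.212. Mcm3 and Mcm7 came close to each other, and the SDs of Mcm5 and Mcm2 nearly met. At the low end were Cdc6 at 0.837 ± 0.0907, the leading-strand polymerase gene Pole at 0.833 ± 0.0737 and Orc1, the largest subunit of the origin recognition complex, at 0.44 ± 0.139 FPKM. Orc1 rested on only 22 to 36 counts per library across the series, so that a change in it would have been hard to see.

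**Figure D1:**
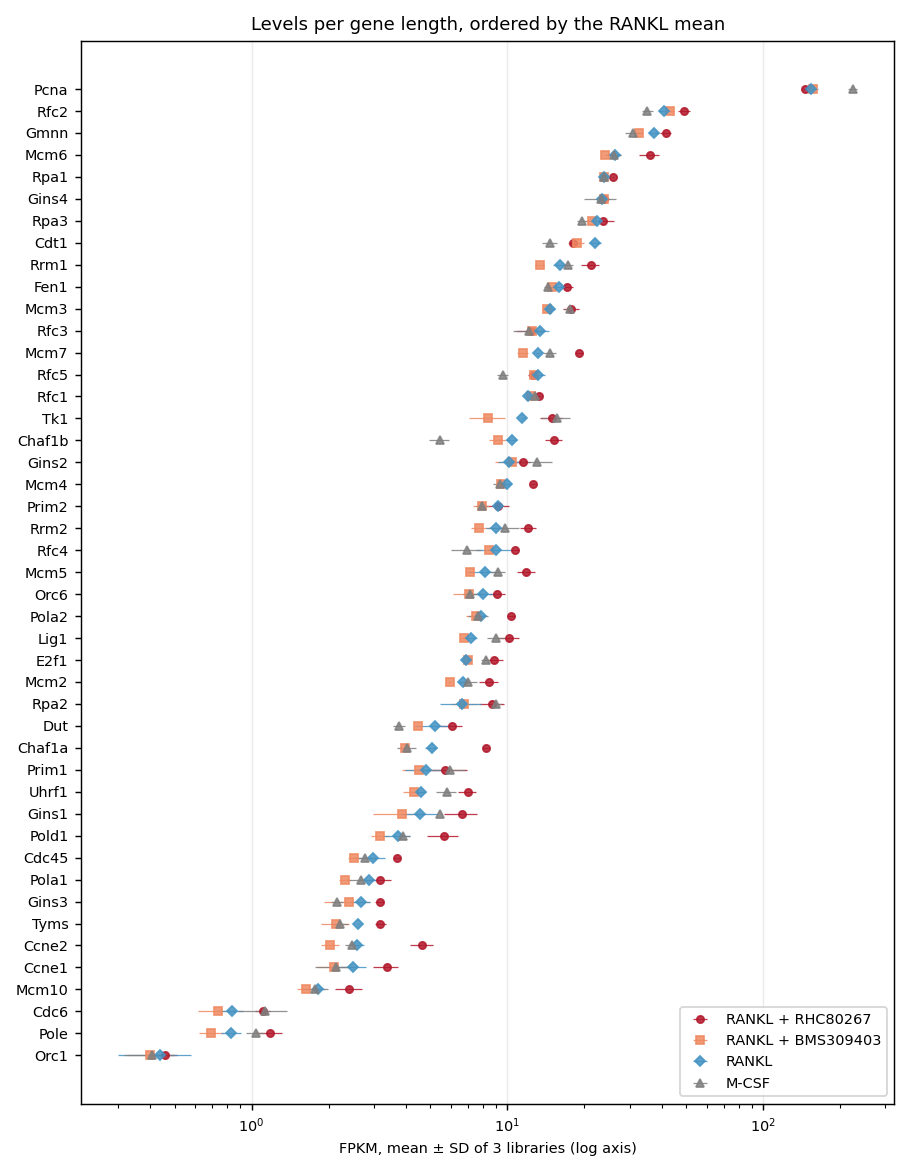
Deposited FPKM of the 45 genes on a log axis, as the mean ± SD of 3 libraries in each of 4 groups, ordered by the mean with RANKL. Pcna stands apart at the top, and the red points (RANKL with RHC80267) lie right of the blue ones (RANKL) for most genes.

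Summed over all 45 genes, the libraries with RHC80267 held 1207, 1126 and 1174 CPM, those with BMS309403 held 979, 960 and 977 CPM, those with RANKL alone 1030, 1012 and 987 CPM, and those with M-CSF alone 1053, 1142 and 1074 CPM. The sums with BMS309403 all lay below those with RANKL, and those with M-CSF all lay above them. The 3 sums with RHC80267 lay above those with RANKL and overlapped those with M-CSF. These sums weigh abundant genes most, and Pcna alone is over 100 CPM in every library. In bulk RNA, a larger share of cells in S phase and more RNA per cycling cell cannot be told apart.

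Many replication genes were higher with RHC80267 than with RANKL alone, though not all. The share that rose ran from 1 of 6 genes of the clamp and its loader to 3 of 3 of chromatin copying. These groups are too small to be ranked against each other. Of the 45, 24 rose and 1 fell, against 26.9% of all tested genes that rose and 23.0% that fell. A change is called when edgeR's quasi-likelihood test, adjusted by Benjamini-Hochberg across the 12168 genes tested, gives a p below 0.05. The median of the members was 0.28 on the log2 scale, against 0.02 for all tested genes, and 39 of the 45 were above 0. All libraries with RHC80267 lay above all with RANKL for 29 members and below them for 1, against 31.1% and 26.8% of all tested genes. The 6 ring genes, cyclin E, the chromatin assembly factor and ribonucleotide reductase all rose, while Cdt1 fell and the clamp and most of its loader did not pass the test.

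In licensing, the 6 ring genes rose together and the loader Cdt1 fell. Mcm7 was at 40.3, 37.5 and 38.8 CPM in the libraries with RHC80267, against 27.7, 27.2 and 27.9 CPM with RANKL alone. Every library with the inhibitor lay above every one without it, a change of 0.49 ± 0.05 on the log2 scale (log2 fold change ± SE, adjusted p = 1.51e-07). Mcm5 was at 37.5, 32.9 and 37.2 CPM with RHC80267 and 28.8, 24.6 and 22.4 CPM with RANKL, again without overlap (0.50 ± 0.08, adjusted p = 1.03e-05). The other ring genes rose by less: Mcm6 by 0.41, Mcm2 and Mcm4 by 0.30 each, and Mcm3 by 0.24. Cdt1, which brings the rings to the origin and is destroyed once S phase begins, was at 33.0, 31.9 and 33.0 CPM with RHC80267, against 40.7, 38.5 and 43.3 CPM with RANKL. It was lower in all 3 libraries (−0.32 ± 0.06, adjusted p = 0.000133), the only member that fell. Cdc6, the loader's ATPase partner, had 4.61 ± 0.301 CPM with RHC80267 and 3.57 ± 0.367 CPM with RANKL (SD, n = 3 each) and was not called at 0.37 ± 0.16 (adjusted p = 0.0679). Gmnn was at 0.13, Orc6 at 0.15 and Orc1 at −0.08, and none of them was called.

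Among the genes that turn the ring into a working helicase, 2 of 6 rose, a share close to that of all tested genes (26.9%). The 2 were Gins1, a GINS subunit, at 0.51 ± 0.16 (adjusted p = 0.0132), and Mcm10, which activates the helicase, at 0.37 ± 0.12 (adjusted p = 0.0123). Both calls rest on single libraries: that of Gins1 is lost without RANKL replicate 2 or RHC80267 replicate 3, and that of Mcm10 without RANKL replicate 2 or RHC80267 replicate 1 and with DESeq2. Cdc45, the helicase cofactor, had 6.73, 6.48 and 6.57 CPM with RHC80267, against 6.06, 4.75 and 5.48 CPM with RANKL. Its libraries did not overlap, but it was not called at 0.28 ± 0.12 (adjusted p = 0.0552), except without RANKL replicate 1, where it was at 0.37. Gins4, which is far more abundant per length than the other GINS genes, was at −0.01 with a 95% interval of −0.20 to 0.18.

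Of the 6 polymerase and primase genes, 3 rose. Pold1, the catalytic subunit of the lagging-strand polymerase δ, was at 18.5, 14.3 and 18.1 CPM with RHC80267, against 11.7, 12.9 and 10.1 CPM with RANKL (0.55 ± 0.10, adjusted p = 0.000106). Pole rose by 0.45 and Pola2, the accessory subunit of polymerase α, by 0.35. The catalytic subunit of polymerase α, Pola1, was not called at 0.11 ± 0.09 (adjusted p = 0.338), and neither was the small primase subunit Prim1 at 0.21 or the large one, Prim2, at 0.02.

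The clamp group was where the rise was least seen, with 1 of 6 genes called and a median of 0.00. Pcna had 131, 136 and 133 CPM with RHC80267, against 143, 149.9 and 134 CPM with RANKL. The libraries overlapped, and the change of −0.10 ± 0.05 was not called (adjusted p = 0.0817), although leaving out RANKL replicate 3 (−0.14), fitting the 2 groups alone or filtering more strictly made it a called fall. Rfc2, a loader subunit, rose by 0.22 ± 0.05 (adjusted p = 0.00173). Rfc4 was not called at 0.22, but was without RANKL replicate 1 at 0.33. Rfc1, the large loader subunit, was at 0.10, Rfc5 at −0.09 and Rfc3 at −0.14, and none of these was called. Pcna and Tyms have named pseudogenes, with which the counting could have shared reads, so their values are less certain.

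On the lagging strand, Lig1, the ligase that joins Okazaki fragments, rose by 0.45 ± 0.07 (adjusted p = 2.42e-05) and stood at 29.9, 24.9 and 27.0 CPM with RHC80267, against 21.0, 19.0 and 19.9 CPM with RANKL, without overlap. Rpa2, a subunit of the single-strand binding protein RPA, rose by 0.36 ± 0.11 (adjusted p = 0.0116), a call lost without RANKL replicate 2 or 3 or RHC80267 replicate 1. Its partners Rpa1 and Rpa3 were at 0.08 and 0.07 and the flap nuclease Fen1 at 0.07, none of them called.

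Deoxynucleotide synthesis followed the rings, with 4 of 5 genes up and a median of 0.36. Rrm1, the large subunit of ribonucleotide reductase, which makes deoxynucleotides from ribonucleotides, was at 79.6, 68.9 and 77.8 CPM with RHC80267, against 62.4, 58.0 and 55.8 CPM with RANKL (0.36 ± 0.06, adjusted p = 1.31e-05). Rrm2, the small subunit that is made in S phase, was at 23.2, 20.3 and 21.6 CPM and 17.8, 16.8 and 15.3 CPM in the same groups (0.39 ± 0.09, adjusted p = 0.00097). Neither pair of groups overlapped. Tk1, the thymidine salvage kinase, had 16.3, 13.4 and 15.6 CPM with RHC80267 and a tight 11.6, 11.6 and 11.5 CPM with RANKL, and rose by 0.38 ± 0.10 (adjusted p = 0.00427). Tyms, which makes thymidylate, rose by 0.25 ± 0.10 (adjusted p = 0.0366), but this call is lost with DESeq2, with no filter and without RANKL replicate 1, 2 or 3 or RHC80267 replicate 1 or 2. Dut, which clears dUTP, was at 0.19 and was not called, except at 0.31 without RANKL replicate 1.

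The 3 genes of chromatin copying and the 3 S-phase regulators all rose. Ccne2, one of the cyclins E, showed the largest change of all 45: it stood at 10.5, 12.8 and 11.2 CPM with RHC80267, against 6.56, 6.46 and 6.10 CPM with RANKL. The lowest library with the inhibitor was well above the highest without it (0.85 ± 0.10, adjusted p = 4.65e-07). Chaf1a, a subunit of the factor that puts histones onto new DNA, was at 24.3, 23.5 and 23.5 CPM with RHC80267, against 15.5, 15.4 and 14.2 CPM with RANKL. That is a change of 0.66 ± 0.07 (adjusted p = 7.07e-08), and its partner Chaf1b rose by 0.51 ± 0.08 (adjusted p = 8.89e-06). Uhrf1, which recruits the maintenance DNA methyltransferase to new DNA, had 21.8 ± 1.74 CPM with RHC80267 and 14.8 ± 0.54 CPM with RANKL (0.56 ± 0.08, adjusted p = 5.66e-06). E2f1 had 20.6 ± 1.62 CPM with RHC80267 and 16.4 ± 0.718 CPM with RANKL (0.33 ± 0.07, adjusted p = 0.000429). Ccne1 rose by 0.41 ± 0.15 (adjusted p = 0.0294), but not under DESeq2, nor without RANKL replicate 2 or RHC80267 replicate 3.

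**Figure D2:**
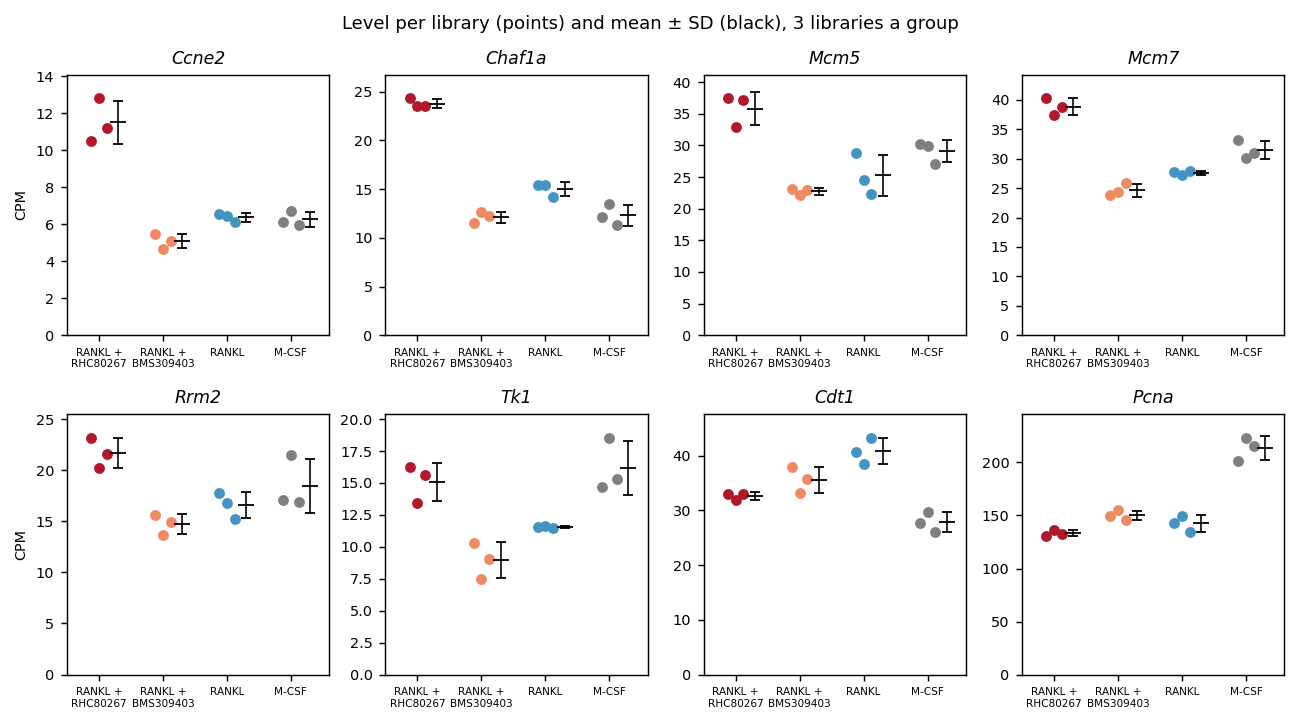
CPM of 8 members in each library (points) with the mean ± SD of 3 libraries (black), for RANKL with RHC80267, RANKL with BMS309403, RANKL and M-CSF alone. Ccne2, Chaf1a, Mcm5, Mcm7, Rrm2 and Tk1 are higher with RHC80267 than with RANKL, Cdt1 is lower, and Pcna overlaps.

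Of the 13 genes with an E2F word, 7 rose and 1, Cdt1, fell with RHC80267, with a median log2 fold change of 0.37. Of the 23 with a promoter but no such word, 12 rose, with a median of 0.28. Lists of related genes that are not members are given beside them. Of 26 mitosis genes 23 rose and 1 fell (median 0.42). Ccnb1, the mitotic cyclin B, rose by 0.49 ± 0.07, and the kinase Aurkb by 0.64 ± 0.08, while the centromeric histone Cenpa fell by 0.69 on the log2 scale. Without RANKL replicate 3, 2 mitosis genes fell. Of 35 other replication factors 14 rose and 3 fell (median 0.18). The 3 smallest p-values were those of Dna2, a nuclease of flap removal, at −0.68 ± 0.06, the maintenance methyltransferase Dnmt1 at 0.27 ± 0.05 and the histone mRNA-binding Slbp at 0.22 ± 0.05. Mtbp (−0.38) and Orc4 (−0.14) were the others that fell, named after their values were seen. With DESeq2 8 rose and 1 fell, and with the stricter filter 5 fell. Leaving out RANKL replicate 2 or 3 or RHC80267 replicate 1 or 3 gave 9 that rose, and leaving out RHC80267 replicate 2 gave 1 that fell.

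Other enzymes of nucleotide supply were mixed with RHC80267: 14 of 31 rose and 7 fell (median 0.12), and 9 rose with DESeq2 or without RANKL replicate 2. The salvage kinase for deoxycytidine, Dck, had 33.7 ± 1.49 CPM with RHC80267 and 63.5 ± 3.08 CPM with RANKL (−0.92 ± 0.06, adjusted p = 1.57e-11). Samhd1, which breaks down deoxynucleotides, had 354 ± 11.4 CPM with RHC80267 and 505 ± 5.73 CPM with RANKL (−0.51 ± 0.04, adjusted p = 1.12e-09). Pfas, an enzyme of purine synthesis, had 30.0 ± 1.19 CPM with RHC80267 and 16.7 ± 0.615 CPM with RANKL (0.85 ± 0.07, adjusted p = 1.75e-09). None of these 3 enzymes overlapped between the groups.

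The genes around the E2F step, a list that also holds cyclin A (Ccna2), did not go one way. Of 29 tested genes of G1 control, E2F and RB, 11 rose and 8 fell with RHC80267 (median 0.07), and 7 rose with DESeq2. Cyclin D1, Ccnd1, had 18.9 ± 1.32 CPM with RHC80267 and 54.8 ± 3.47 CPM with RANKL (−1.53 ± 0.08, adjusted p = 1.58e-12). Its sister Ccnd2 had 1.97 ± 0.449 CPM with RHC80267 and 7.40 ± 0.576 CPM with RANKL (−1.91 ± 0.18, adjusted p = 1.34e-08). Cdkn1b, which encodes the cyclin E/CDK2 inhibitor p27, had 71.8 ± 2.70 CPM with RHC80267 and 48.7 ± 2.25 CPM with RANKL (0.56 ± 0.05, adjusted p = 4.47e-09). Ccnd1 and Ccnd2 thus fell and Cdkn1b rose in the same libraries in which the cyclin E genes rose. Of 11 tested p53 targets 6 rose and 2 fell, with Trp53inp1 at 0.71 ± 0.05, Btg2 at 0.43 ± 0.07 and Mdm2 at −0.23 ± 0.04. The other that fell was Aen, at −0.20, and 1 fell with DESeq2 or without RANKL replicate 2 or RHC80267 replicate 1 or 3.

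Few genes of any kind passed the test with BMS309403, and the share of replication genes was close to that of all tested genes. The replication genes that did pass were lower than with RANKL alone. No member rose, 3 fell and 42 were not called, where 3.51% of all tested genes rose and 3.76% fell. At an unadjusted p below 0.05, edgeR had 1 higher and 10 lower members and DESeq2 0 higher and 7 lower. At an adjusted p below 0.05, DESeq2 had 0 higher and 1 lower. The median was −0.13, against −0.01 for all tested genes, and 36 of 45 lay below 0. The comparison uses the same 3 RANKL libraries as that of RHC80267, so the 2 are not independent of each other.

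The 3 that fell belong to chromatin copying, nucleotide supply and licensing. Chaf1a had 11.5, 12.6 and 12.2 CPM with BMS309403, against 15.5, 15.4 and 14.2 CPM with RANKL (−0.31 ± 0.08, adjusted p = 0.017). Rrm1 had 49.6, 48.4 and 52.3 CPM with BMS309403, against 62.4, 58.0 and 55.8 CPM with RANKL (−0.23 ± 0.06, adjusted p = 0.0183). Cdt1 had 38.0, 33.2 and 35.7 CPM with BMS309403, against 40.7, 38.5 and 43.3 CPM with RANKL (−0.20 ± 0.06, adjusted p = 0.0477). In each of them all 3 libraries with the inhibitor were below all 3 without it, as was also the case for some members that were not called. Leaving out RANKL replicate 1 ended all 3 calls. The call of Chaf1a also ends under DESeq2 or without BMS309403 replicate 1 or RANKL replicate 2, and that of Rrm1 without BMS309403 replicate 1 or 2. The call of Cdt1 is also lost with DESeq2, with the stricter filter, in a fit of these groups alone, and without RANKL replicate 3 or BMS309403 replicate 2 or 3.

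Among the members that were not called with BMS309403, Tk1 lay lowest. It had 10.3, 7.47 and 9.06 CPM with BMS309403, against 11.6, 11.6 and 11.5 CPM with RANKL. The groups did not overlap, but it missed the threshold at −0.37 ± 0.12 (adjusted p = 0.0525), which it passed with no filter, in a fit of these groups alone and without BMS309403 replicate 1. Tyms was at −0.26 ± 0.10 and Rrm2 at −0.17 ± 0.09, both not called. Ccne2 was at −0.33 ± 0.12 (adjusted p = 0.0977), with a 95% interval of −0.60 to −0.06, and Pola1 at −0.27 ± 0.09 (adjusted p = 0.0909). Mcm5 was at −0.15, Gmnn at −0.15, Cdc6 at −0.14, Cdc45 at −0.21, Ccne1 at −0.20 and Uhrf1 at −0.07. Above 0, and also not called, were Pcna at 0.07 ± 0.04, E2f1 at 0.05 and Rpa2 at 0.07.

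Mitosis genes were the related list with the most calls with BMS309403: 15 of 26 fell and none rose (median −0.37), and 9 fell without RANKL replicate 1. The anaphase activator Cdc20 had 10.8 ± 0.476 CPM with BMS309403 and 15.9 ± 0.909 CPM with RANKL (−0.56 ± 0.08, adjusted p = 0.000286). The cyclins B were close to it, Ccnb2 at −0.48 ± 0.07 and Ccnb1 at −0.46 ± 0.07. The other lists held few calls: 1 of 35 replication factors fell (Dna2, at −0.22), 2 of 29 genes of G1 control fell (Ccna2, cyclin A, at −0.39 and Myc at −0.42), 2 of 31 nucleotide enzymes rose and 2 fell, and no p53 target was called. Among the enzymes, Dck was at 0.26, Samhd1 at 0.15, Impdh1 of guanine nucleotide synthesis at −0.19 and Mthfd1 of one-carbon supply at −0.26. Without RANKL replicate 1 or BMS309403 replicate 2, 1 enzyme rose and 0 fell (1 fell with DESeq2 or when any 1 of the other 4 libraries was left out). The calls of Dna2 and Impdh1 are lost with DESeq2 or when any 1 library other than RANKL replicate 3 is left out, that of Myc without RANKL replicate 1 or 2 or BMS309403 replicate 3, that of Mthfd1 without RANKL replicate 1 or 3 or BMS309403 replicate 2, and that of Ccna2 without BMS309403 replicate 2.

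Set directly against BMS309403, at the same dose of 1 µM and the same time, RHC80267 gave more RNA of most replication genes. Of the 45, 31 were higher, 1 was lower and 13 were not called, where 30.1% of all tested genes were higher and 25.5% lower. The median was 0.36, against 0.03 for all tested genes, and the groups did not overlap for 32 members above and 2 below (33.2% and 28.5% of all tested genes). Ccne2 differed most, with 10.5, 12.8 and 11.2 CPM with RHC80267 and 5.45, 4.68 and 5.09 CPM with BMS309403 (1.18 ± 0.11, adjusted p = 4.4e-09). Chaf1a followed with 24.3, 23.5 and 23.5 CPM with RHC80267 and 11.5, 12.6 and 12.2 CPM with BMS309403 (0.97 ± 0.07, adjusted p = 1.97e-10). In both genes the 2 groups stood clear of each other. The compounds are not known to be analogs, and their action on their targets in these cells was not analysed here.

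All 5 nucleotide genes were higher with RHC80267 than with BMS309403. Tk1 had 15.1 ± 1.50 CPM with RHC80267 and 8.93 ± 1.41 CPM with BMS309403 (0.76 ± 0.11, adjusted p = 5.04e-06), and Rrm1, Rrm2, Tyms and Dut differed by 0.59, 0.56, 0.51 and 0.36. In licensing 9 of 11 were higher, Mcm5 by 0.66 ± 0.08 (adjusted p = 2.59e-07), Cdc6 by 0.51 and Gmnn by 0.27. Cdt1 was not called at −0.13 ± 0.06 (95% interval −0.27 to 0.02), except as lower with the stricter filter, in a fit of these groups alone and without BMS309403 replicate 2. Pold1 was higher by 0.75, Gins1 by 0.70, Cdc45 by 0.49, Pola1 by 0.38, Uhrf1 by 0.62, Ccne1 by 0.61, E2f1 by 0.28 and Rpa2 by 0.29. The 1 member that was lower was Pcna, with 131, 136 and 133 CPM with RHC80267 and 149, 155 and 146 CPM with BMS309403, groups that did not overlap (−0.17 ± 0.05, adjusted p = 0.0029). The calls of Cdc6, Rpa2, Orc6, Gins3 and Prim2 did not hold throughout. All but that of Cdc6 are lost with DESeq2, those of Gins3 and Prim2 also with no filter, with the stricter filter and in a fit of these groups alone, and that of Gins3 with RLE factors too. With a library left out, that of Cdc6 is lost without BMS309403 replicate 2, and that of Rpa2 without BMS309403 replicate 1 or 2 (0.18 without replicate 2) or RHC80267 replicate 1 or 3. That of Orc6 is lost without replicate 1 or 3 of either group, that of Gins3 without BMS309403 replicate 3 or any 1 of the 3 RHC80267 libraries, and that of Prim2 without BMS309403 replicate 2 or 3 or any RHC80267 library.

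The related lists were set side by side for the inhibitors as well. Of 26 mitosis genes 24 were higher with RHC80267 than with BMS309403 and 1, Cenpa, was lower at −0.80 ± 0.06 (median 0.77), and Ccnb1 was at 0.95 ± 0.07 and the spindle midzone gene Prc1 at 0.93 ± 0.07. Of 35 other replication factors 16 were higher and 4 lower, with Dna2 at −0.46 ± 0.06, Dnmt1 at 0.25 ± 0.05 and the histone chaperone Asf1b at 0.51 ± 0.10. The others that were lower, named after their values were seen, were Rnaseh2b, Donson and Orc4 at −0.28, −0.26 and −0.15, and 2 were lower with DESeq2 or without RHC80267 replicate 2. Of 31 nucleotide enzymes 13 were higher and 6 lower, with Dck at −1.17 ± 0.06, Samhd1 at −0.67 ± 0.04 and Pfas at 0.93 ± 0.07. In G1 control 11 of 29 were higher and 9 lower, with Ccnd1 at −1.32 ± 0.08, Ccnd2 at −1.81 ± 0.18 and Ccna2 at 0.79 ± 0.08. Of 11 p53 targets 5 were higher and 3 lower: Trp53inp1 was at 0.72 ± 0.05, Gtse1 at 0.67 ± 0.13, Sesn2 at 0.34 ± 0.08, Bbc3 at 0.32 and Btg2 at 0.25, and Mdm2, Bax and Aen were at −0.14, −0.17 and −0.22.

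With RANKL alone, replication genes did not all go one way, and they were called no more often than other genes. Relative to M-CSF alone, 8 of the 45 rose and 13 fell, where 31.4% of all tested genes rose and 29.8% fell, and the median was −0.01, against 0.00 for all tested genes. The groups did not overlap for 11 members above and 11 below, against 33.4% and 32.2% of all tested genes. The 13 that fell included Pcna, Tk1, Cdc6, Uhrf1, Lig1, E2f1 and 3 of the 6 ring genes. Those that rose included both chromatin assembly factor subunits, Cdt1, its inhibitor Gmnn and 3 loader genes. Without M-CSF replicate 2, the library with the highest member sum of its group, only 8 fell.

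Pcna fell most among the members. It stood at 143, 149.9 and 134 CPM with RANKL, against 202, 224 and 216 CPM with M-CSF, so that no library with RANKL came near those without it (−0.58 ± 0.04, adjusted p = 1.56e-10). Tk1 had 11.6, 11.6 and 11.5 CPM with RANKL, against 14.7, 18.6 and 15.3 CPM with M-CSF (−0.48 ± 0.10, adjusted p = 0.000383). Rpa2 fell by 0.47 on the log2 scale (adjusted p = 0.00096), Uhrf1 was at −0.36 ± 0.08 (adjusted p = 0.000715), Lig1 at −0.35 and E2f1 at −0.28 ± 0.07 (adjusted p = 0.00131). Of the rings, Mcm3 fell by 0.29, Mcm7 by 0.19 and Mcm5 by 0.20, while Mcm2, Mcm4 and Mcm6 were not called at −0.10, 0.06 and −0.01. The call of Mcm5 is lost under DESeq2 or when RANKL replicate 2 or 3 or M-CSF replicate 1 or 2 is left out, and its value is −0.31 without RANKL replicate 1 and −0.12 without RANKL replicate 3. The call of Cdc6, at −0.47 ± 0.16, ends when RANKL replicate 3 or M-CSF replicate 2 (−0.30) is left out, that of Gins2, at −0.39, when M-CSF replicate 2 is, and that of Pole, at −0.34, when either is or under DESeq2. Rfc1, at −0.12, loses it with DESeq2 and without any 1 of M-CSF replicates 2 and 3 and the 3 RANKL libraries.

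Chaf1b rose most with RANKL. It had 17.2, 16.0 and 15.9 CPM with RANKL, against 8.07, 9.73 and 8.59 CPM with M-CSF (0.90 ± 0.09, adjusted p = 1.56e-08), and Chaf1a was at 0.29 ± 0.08 (adjusted p = 0.00273). Cdt1 had 40.7, 38.5 and 43.3 CPM with RANKL, against 27.7, 29.7 and 26.1 CPM with M-CSF (0.55 ± 0.06, adjusted p = 8.3e-08). In these 3 genes the groups were apart. Cdt1 was called as higher with RANKL and as lower when either inhibitor was added, in comparisons that all use the RANKL libraries. Its call with BMS309403 held under only 4 of 12 alternatives, so that part of the pattern is not firm. Gmnn rose by 0.23 ± 0.07 (adjusted p = 0.00491) and Dut by 0.41 ± 0.11 (adjusted p = 0.00287). The loader genes Rfc5, Rfc4 and Rfc2 rose by 0.42, 0.33 and 0.19, while the clamp that they open fell. The call of Rfc4 ends under DESeq2 or when RANKL replicate 1 or 3 or M-CSF replicate 1 or 3 is left out, and that of Rfc2 when RANKL replicate 3 or M-CSF replicate 1 is.

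Other members were not called between RANKL and M-CSF, among them some that rose with RHC80267 over RANKL. Ccne2 was at 0.03 ± 0.11 (95% interval −0.23 to 0.29), Ccne1 at 0.18 ± 0.16, Cdc45 at 0.08 and Pola1 at 0.08, none of them called. Rrm2 was at −0.15 ± 0.09, Tyms at 0.20 ± 0.10 and Rrm1 at −0.13 ± 0.06 (adjusted p = 0.0511). Rrm1 was called as lower with RLE factors, with no filter, with the stricter filter, in a fit of these groups alone, and when RANKL replicate 1 or M-CSF replicate 3 was left out.

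**Figure D3:**
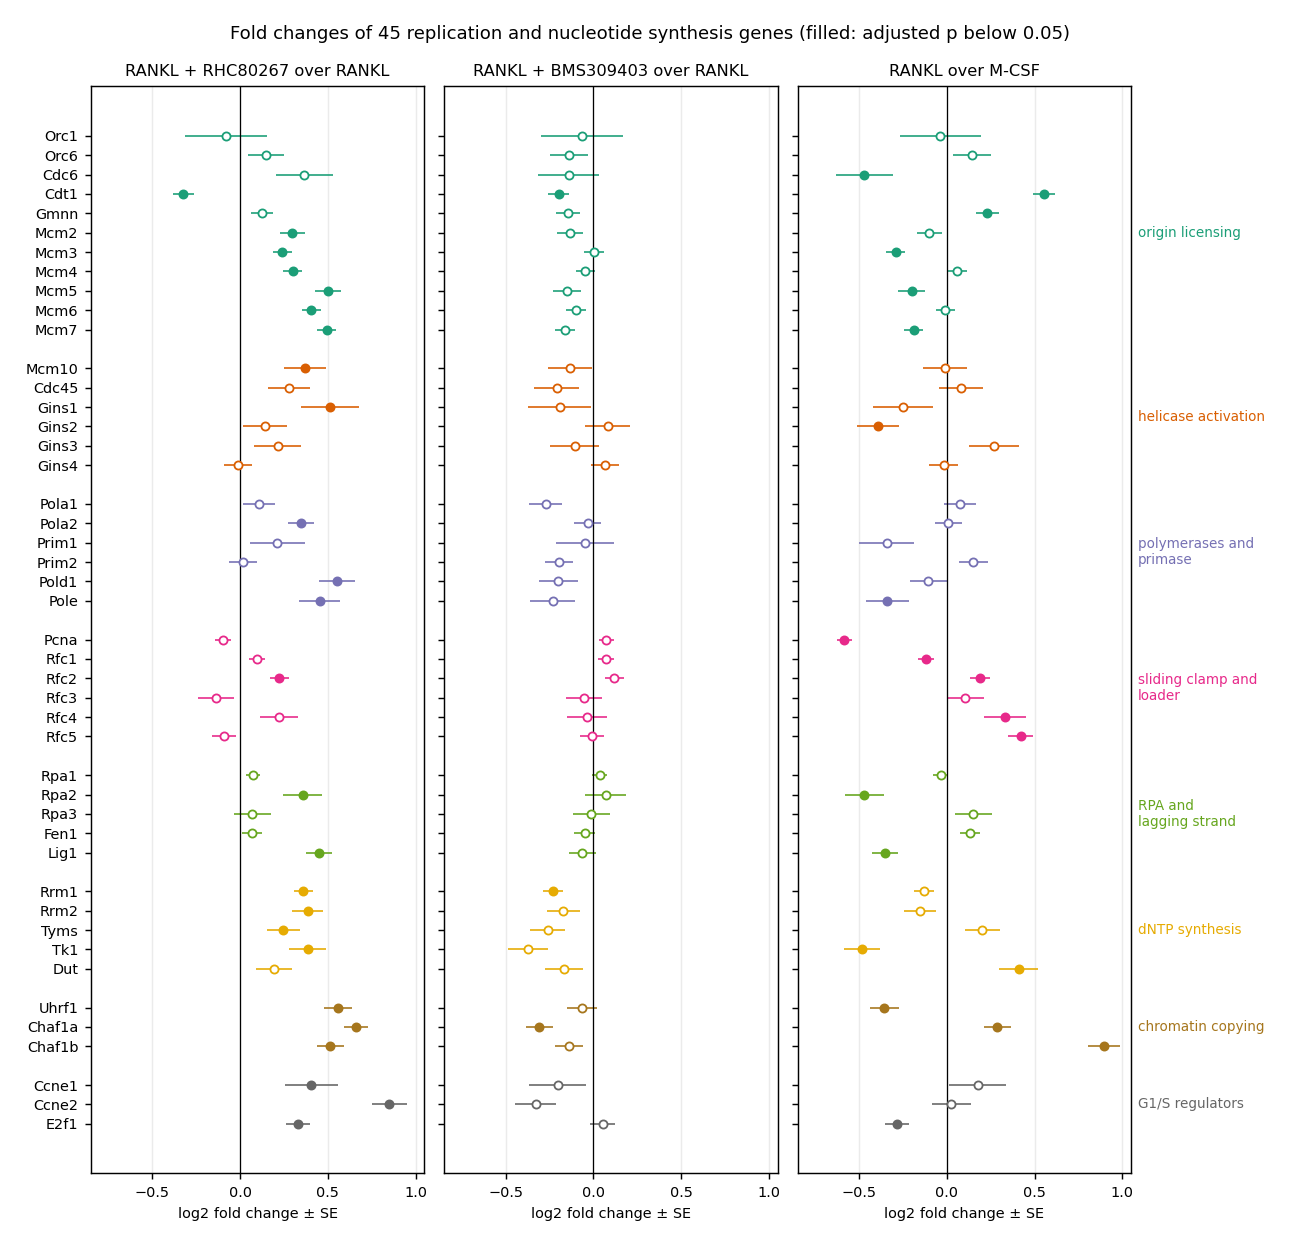
Log2 fold change ± SE of each of the 45 genes by role, for RANKL with RHC80267 over RANKL, RANKL with BMS309403 over RANKL, and RANKL over M-CSF, where filled points passed the test. Points lie mostly right of 0 with RHC80267 (24 of 25 called genes), close to 0 and mostly left of it with BMS309403, and on both sides with RANKL (8 higher, 13 lower).

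The related lists also differed in direction with RANKL. Of 31 other nucleotide enzymes 21 rose and 3 fell (median 0.31), with Impdh1 at 0.73 ± 0.05, the purine enzyme Atic at 0.59 ± 0.05 and the CTP synthase Ctps2 at −0.45 ± 0.04. Dck and the purine and pyrimidine precursor enzyme Prps2 fell too, at −0.37 and −0.36. Of 35 other replication factors 8 rose and 5 fell, 5 rose with DESeq2 or without M-CSF replicate 3, and 4 rose without RANKL replicate 1. Dna2 was at 0.98 ± 0.06, the origin recognition subunit Orc2 at 0.37 ± 0.05 and Dnmt1 at −0.28 ± 0.05, and Mcm9, Pold4, Asf1b and Slbp, named after their values were seen, fell by 0.16 to 0.32. Of the genes of G1 control 4 rose and 14 fell, with Myc, a driver of growth and nucleotide synthesis, at 1.61 ± 0.11, the kinase inhibitor gene Cdkn1a at −0.78 ± 0.04 and the RB relative Rbl2 at −0.34 ± 0.04. The others that rose were Cdkn2b at 1.35, Skp2 at 0.18 and Cdk4 at 0.14. Of 26 mitosis genes 5 rose and 8 fell, and 3 rose without RANKL replicate 1. The spindle checkpoint kinase Bub1b was at 0.66 ± 0.07, the proliferation marker Mki67 at −0.35 ± 0.05 and Aurkb at −0.45 ± 0.08, and Bub1, Aurka, Cdc20 and Ccnb1 rose by 0.25 to 0.36. Of 11 tested p53 targets 1 rose and 8 fell, among them Btg2 at −0.94 ± 0.07, Trp53inp1 at −0.61 ± 0.05 and Bbc3, a killer gene known as Puma, at −1.08 ± 0.08, while Mdm2 rose by 0.14.

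**Figure D4:**
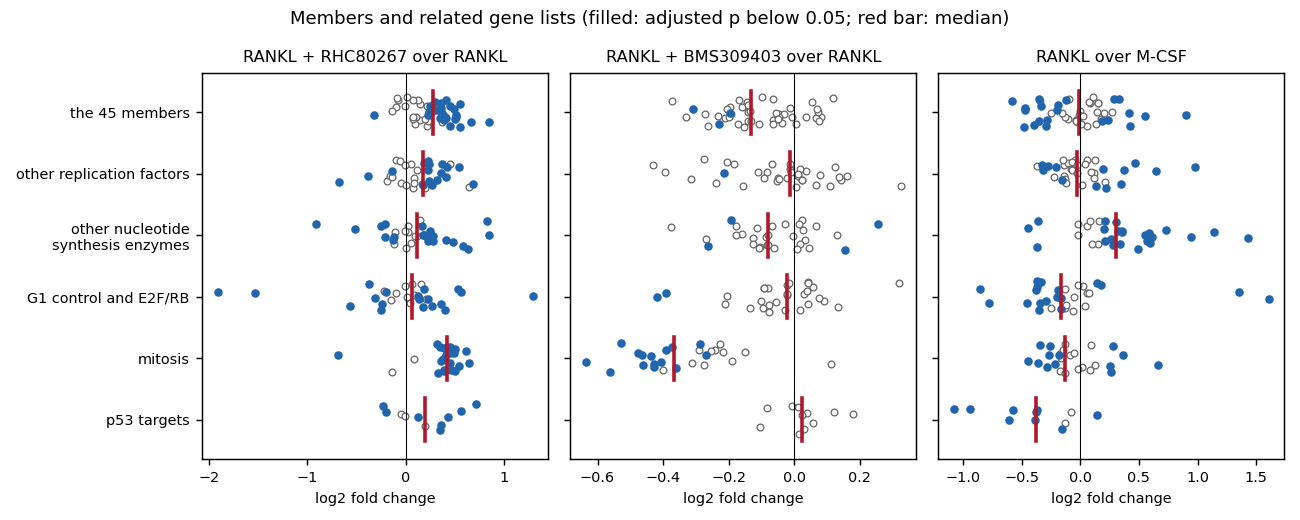
Log2 fold changes of the members and 5 related gene lists in 3 comparisons, with filled points past the test and a red bar at each median; the horizontal axes differ between panels. With RHC80267 the medians of the members and of mitosis genes are 0.28 and 0.42, with BMS309403 they are −0.13 and −0.37, and with RANKL they are −0.01 and −0.13.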

How the data were processed

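Polyadenylated RNA of cultured mouse macrophages was sequenced in 12 libraries. The authors deposited an expected count per gene and library, read as such because 9.49% to 9.89% of the values per library are fractional, and FPKM, which were used only for levels between genes. Per the submitters' processing notes, Bowtie2 was used with RSEM 1.3.1 and DESeq2 1.4.5, with their order and any filter on reads or genes not given in the sources used here. Another 24 columns of per-sample values were not used. Counts were rounded, filtered by group with filterByExpr (12168 of 16570 genes kept) and scaled by TMM. All 12 libraries entered 1 quasi-likelihood fit in edgeR 4.0.16 (R 4.3.3) on group alone, which leaves 8 residual degrees of freedom, and the fit was tested on simulated data. P-values are 2-sided and adjusted by Benjamini-Hochberg over all genes tested. The 95% intervals use the 8 residual degrees of freedom alone and are wider than the unadjusted p-values imply. CPM is the rounded count over the TMM-scaled library size. Total counts of 17760844 to 18344989 set the precision, with a biological coefficient of variation of 0.0371; no 2 libraries of a group agreed within sampling noise. Libraries with the same replicate number showed no clear pairing. Gene lists, roles and members were chosen with earlier results of these data known. Named in every comparison are 16 fixed members, the 5 highest and 5 lowest called members, called members against the majority, and the 3 genes of each related list with the smallest p; further members were chosen after their values were seen. The fits were repeated with DESeq2 1.42.0, with RLE factors, unfiltered, with a stricter filter (1 CPM or more in 3 or more libraries), on the 2 groups alone, with a replicate block and without each library in turn; for related lists these were chosen after seeing the data.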

Additional observations from a re-analysis of the deposited data

How the results depend on the processing

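The members' counts and medians were recomputed under 12 alternatives per comparison. With RHC80267 over RANKL, 19 to 26 members rose when a library was left out, and 20 of the 25 called members kept their call under every alternative; 2 members fell, in place of 1, with the stricter filter, in a fit of these groups alone and without RANKL replicate 3 (Pcna joined Cdt1), and the leave-one-out range was 1 to 2. With BMS309403 over RANKL, 1 member fell with DESeq2 and 0 to 2 with a library left out, 0 without RANKL replicate 1 (9 at an unadjusted p below 0.05 in edgeR) and 1 without BMS309403 replicate 2; none of the 3 calls held under every alternative, and the median ran from −0.13 to −0.0678. With RHC80267 over BMS309403, 27 to 31 members were higher with a library left out, 27 of 32 calls held throughout, and 2 members were lower with the stricter filter and in a fit of these groups alone (leave-one-out 1 to 2). With RANKL over M-CSF, 14 of 21 calls held throughout, 8 to 14 members fell with a library left out, and the median changed sign, running from −0.0372 to 0.0385 (0.0385 without M-CSF replicate 2, 0.00525 without RANKL replicate 3). Members near 0 changed sign with a library left out: 4 of 45 with RHC80267 over RANKL, 11 with BMS309403 over RANKL, 4 between the inhibitors and 8 with RANKL over M-CSF. Among the members named in every comparison these were, with RANKL over M-CSF, Cdc45 (−0.00589 without RANKL replicate 1, to 0.166), Pola1 (−0.0108 without M-CSF replicate 3, to 0.149) and Ccne2 (−0.00790 without M-CSF replicate 3, to 0.0746), and, with BMS309403, Rpa2 (−0.00701 without RANKL replicate 2, to 0.219); no member that changed sign was called, and the cause was not tested. The replicate numbers showed no clear pairing of the libraries (same-number correlations of deviations −0.06 to 0.09), but such small correlations cannot settle it. With the replicate block, 24 members rose and 1 fell with RHC80267, and 0 rose and 2 fell with BMS309403. Between the inhibitors the counts were 31 and 1, and with RANKL 8 and 14. The medians were 0.28, −0.13, 0.36 and −0.01 in that order. The block ended the call of Cdt1 with BMS309403 and added that of Rrm1 with RANKL. With 3 libraries a group, members below about 5 CPM such as Cdc6, Gins1, Ccne1 and Orc1 have the widest errors, and at this depth small changes in them were not detectable.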
